A study of Saccharomyces cerevisiae with 6 samples.

Results

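Transcript levels of 52 ribosome biogenesis factors were compared between wild type and snf2Δ cells of Saccharomyces cerevisiae. Snf2 is the ATPase of the chromatin remodeler Swi-Snf, which moves or evicts nucleosomes. The 52 genes are 52 of the 7127 features in the table of read counts. They were chosen by role: Nop proteins, core proteins of the snoRNPs, subunits of the small subunit processome, and assembly factors of the 60S subunit. The series measured poly-A enriched RNA by sequencing in 6 libraries, 3 from wild type and 3 from snf2Δ. Both strains were HHY221, a W303-derived MATa strain carrying the alleles TOR1-1 and fpr1Δ and a fusion of RPL13A to FKBP12, and the mutant lacked SNF2 in addition. All cells grew in YPD at 30 °C to log phase, at an optical density of 0.4 to 0.8, and none received rapamycin, the drug to which the TOR1-1 allele gives resistance. The controls therefore share the TOR1-1 and fpr1Δ alleles with the mutant, and each genotype is represented by 1 strain.

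Ribosome biogenesis starts in the nucleolus, where RNA polymerase I transcribes a long precursor rRNA. Box C/D and box H/ACA snoRNPs modify its nucleotides, the small subunit processome folds and cleaves its 5′ part into a pre-40S particle, and a separate set of factors packs the rest into a pre-60S particle. In yeast the genes for these factors form one of the largest co-regulated groups: they are transcribed strongly in growing cells and repressed together in stress. Many of their promoters hold a PAC element, bound by the repressors Dot6 and Tod6, and an RRPE element, bound by Stb3.

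The promoters of the 52 factors were read from the R64 yeast genome, as 250 bases before and 50 bases after the first base of the start codon. PAC was searched as GATGAG and RRPE as AAAAATTT, on both strands. A PAC match was present in 49 of 52 factors (94.2%), against 1222 of 6001 yeast promoters (20.4%). An RRPE match was present in 46 of 52 (88.5%), against 849 of 6001 (14.1%). Both stood in 44 of the 52 factors (84.6%) and in 338 of all 6001 promoters (5.63%). The median first base of the matches lay 111 bases before the start codon for PAC and 140 bases before it for RRPE. In 39 of the 44 factors with both elements, the RRPE match nearest to a PAC match was the one farther from the start codon (88.6%), as it was in 219 of the 338 promoters with both genome-wide (64.8%). The longer PAC form GCGATGAG was less common, with 30 of 52 factors (57.7%) against 236 of 6001 promoters (3.93%). UTP22 was the factor with neither element, UTP15 and SPB1 held no PAC match, and UTP13, RRP9, MPP10, UTP7 and ENP2 held no RRPE match.

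Stretches of 6 of these promoters are shown because they belong to the 3 factors whose fall was called under every setting tried (NOP7, GAR1, BRX1), to NOP56, to the factor that rose (NOG2), and to UTP6, which was not called. Each is on the strand of its gene, 5′ to 3′, in R64 coordinates, with 15 bases on either side, and capitals mark PAC or RRPE matches on either strand. CTCATC is PAC and AAATTTTT is RRPE on the opposite strand, and the run AAAAATTTTT holds a match on each strand. 
NOP7, chrVII:695262-695334, plus strand: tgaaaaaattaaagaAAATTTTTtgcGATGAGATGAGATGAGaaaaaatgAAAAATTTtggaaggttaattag
GAR1, chrVIII:283403-283451, minus strand: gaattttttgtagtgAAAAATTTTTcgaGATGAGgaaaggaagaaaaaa
BRX1, chrXV:186849-186898, minus strand: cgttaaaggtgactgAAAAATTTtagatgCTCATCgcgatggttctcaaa
NOP56, chrXII:545941-546008, plus strand: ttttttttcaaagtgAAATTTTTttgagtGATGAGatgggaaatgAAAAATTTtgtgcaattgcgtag
NOG2, chrXIV:723242-723308, minus strand: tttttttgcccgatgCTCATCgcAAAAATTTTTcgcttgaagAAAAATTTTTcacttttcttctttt
UTP6, chrIV:1358987-1359045, minus strand: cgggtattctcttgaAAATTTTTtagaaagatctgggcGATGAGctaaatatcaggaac
NOP7 carried 3 overlapping PAC matches between a pair of RRPE matches. The 6 promoters were picked by call, and each held both elements, as 44 of the 52 factors did. They therefore cannot show whether the elements relate to the calls.

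**Figure D1:**
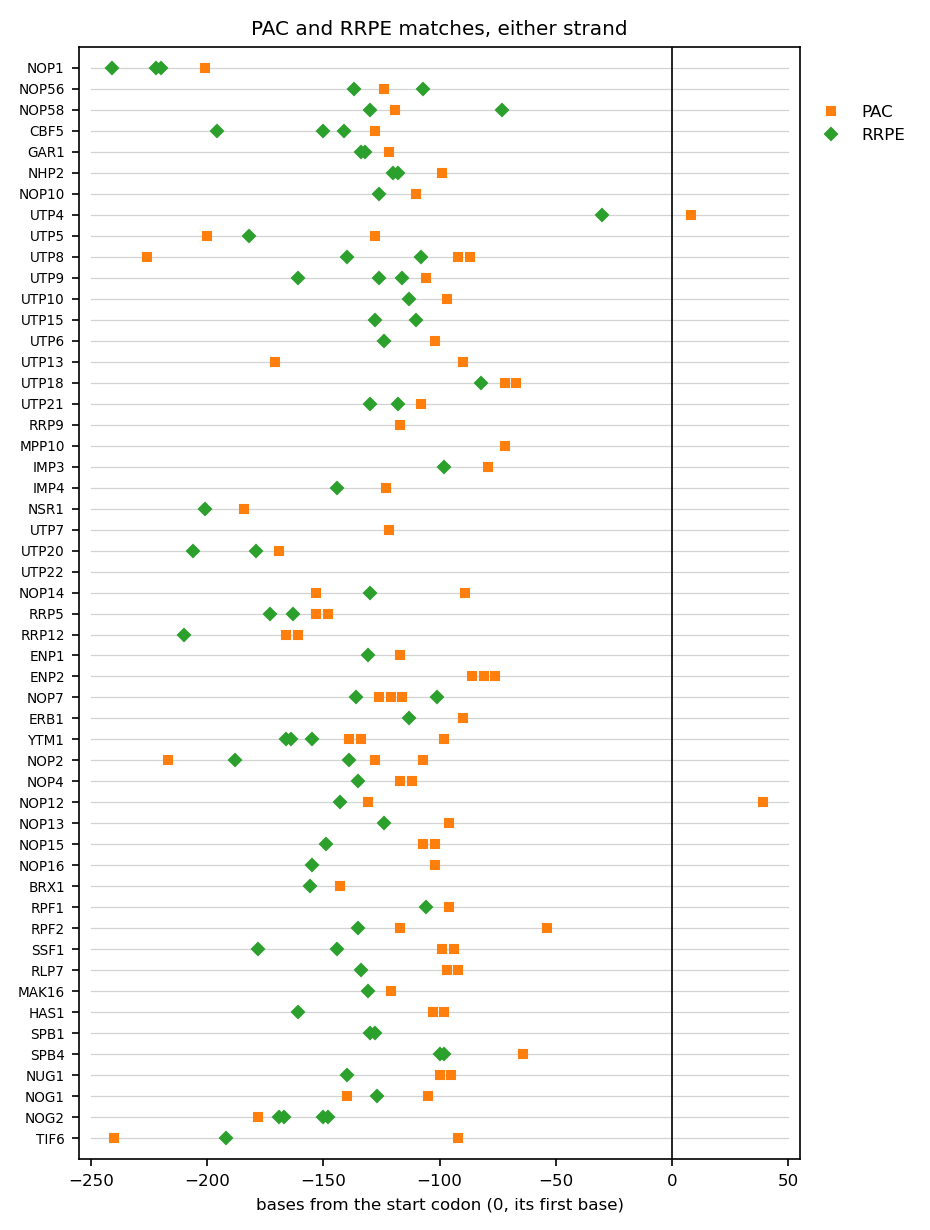
Positions of PAC (squares) and RRPE (diamonds) matches on either strand in the promoters of the 52 factors, in bases from the start codon, with factors ordered by role. Most PAC matches lie close to the median of 111 bases before the start codon and most RRPE matches a little farther out, and UTP22 has neither.

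The libraries held 4134546 to 6708036 counts, and the 52 factors took 0.965% to 1.299% of them. The lowest count of any factor was 191 (UTP6) and the highest 9107 (NOP1), so no factor was near the floor of 3 counts. Levels are CPM (counts scaled to a common library size by TMM), and fold changes and adjusted p-values are from edgeR's quasi-likelihood test. Benjamini-Hochberg adjustment ran over 5642 genes with SNF2 among them, and tallies of genes leave SNF2 out and cover 5641. SNF2 itself was at 58.5 to 74.99 CPM in wild type and 1.38 to 1.97 CPM in snf2Δ, and FPR1, deleted in both strains, was at 0 counts in every library. Of the MATa markers, MFA1, MFA2, STE2, STE6 and BAR1 summed to 1421 to 2347 CPM in wild type and 1455 to 1651 CPM in snf2Δ. The 4 MATalpha markers summed to 39.8 to 51.3 CPM and 50.4 to 52.3 CPM, nearly all of it SAG1, with MF(ALPHA)1 and MF(ALPHA)2 at or near 0. Within the MATa sum, MFA1 and MFA2 fell in snf2Δ, with log2 fold changes of -0.99 and -0.76 (edgeR adjusted p = 0.00291 and 0.0157). STE2, STE6 and BAR1, at 0.22, -0.32 and 0.24, were not called. Wild type replicate 3 stood apart from the other wild type libraries. The labels do not say that replicates were separate cultures, so p-values measure the spread between these libraries, which may be technical.

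At an adjusted p under 0.05, 10 of the 52 factors fell and 1 rose in snf2Δ. All 52 passed the filter on low counts. Among all 5641 genes tested, 1010 fell (17.9%) and 942 rose (16.7%). The share of factors that fell (19.2%) was near that background, while the share that rose (1.92%) was below it. With upper-quartile scaling 59.8% of the genes called across the genome rose, against 48.3% in the main fit, and 7 factors then fell and 1 rose. No factor had an estimated change of 2-fold: log2 fold changes ran from -0.82 to 0.41 with a median of -0.21. Over all genes the median was -0.02 and the range -5.91 to 6.57. In all, 39 of the factors had a value below 0. All 52 had a size under 1 on the log2 scale, which 89.0% of all genes tested also had. The 95% interval lay within 1 on either side of 0 for all 41 factors that were not called. It reached past -1 for NOP7 (-1.11 to -0.52) and NOP16 (-1.08 to -0.23), and lay within 1 for the rest. The SE of the log2 fold change was 0.13 to 0.20. Levels of all 3 snf2Δ libraries lay below all 3 wild type libraries for 15 factors, where 24.1% of all genes did so, and above them for 1 factor, where 22.4% of all genes did so. In bulk RNA, fewer cells that express a gene and less of its RNA per cell cannot be told apart.

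The number of calls depended on single libraries, for the factors and across the genome. Without wild type replicate 3, 16 factors fell (30.8%), beside 22.95% of all genes tested. NOP58, UTP7, NOP2, NOP4, NOP15 and RPF2 then joined the 10, and NOG1 and TIF6 rose beside NOG2. Without snf2Δ replicate 2, 3 factors fell (5.77%), beside 13.1% of all genes. NOP7, GAR1 and BRX1 remained and none rose. Without wild type replicate 1 or 2, 6 and 7 factors fell (11.5% and 13.5%, beside 13.6% and 14.2% of all genes). Without snf2Δ replicate 1 or 3, 10 and 9 fell (19.2% and 17.3%, beside 14.6% and 14.5%).

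**Figure D2:**
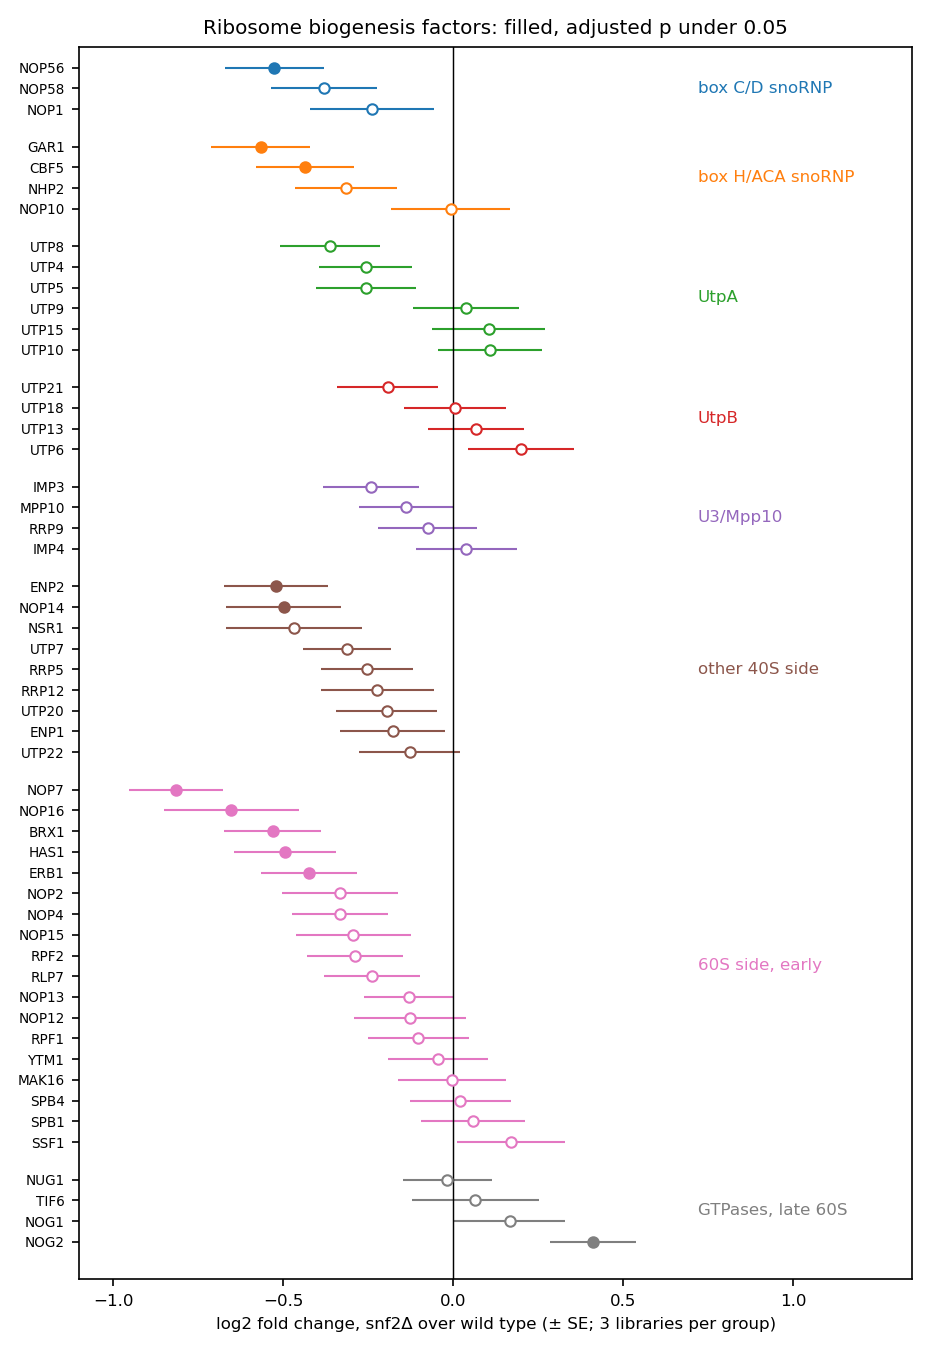
Log2 fold change of each of the 52 factors in snf2Δ over wild type, by role, with bars of 1 SE (3 libraries per group) and filled points for an adjusted p under 0.05. The filled points are 10 factors below 0, from NOP7 at -0.82 to ERB1 at -0.42, and NOG2 above 0 at 0.41.

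**Figure D3:**
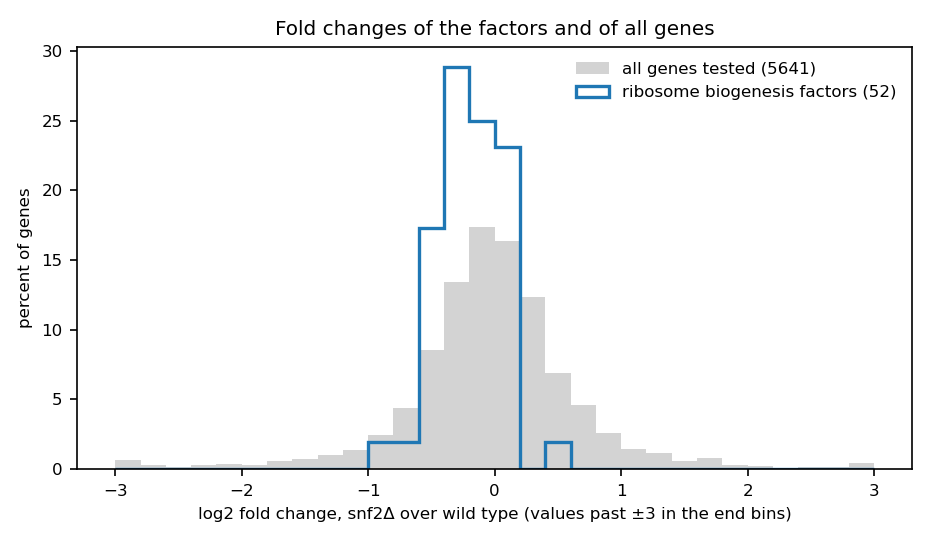
Percent of genes by log2 fold change in snf2Δ over wild type, for all 5641 genes tested (grey) and for the 52 factors (blue line), in bins of equal width. The factors lie between -0.82 and 0.41 and have no members in the tails of the distribution of all genes.

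The core proteins of the box C/D snoRNPs, which guide 2′-O-methylation of rRNA, include the methyltransferase Nop1 (fibrillarin) and the scaffold proteins Nop56 and Nop58. NOP56 (YLR197W, chromosome XII, 546097 to 547611, plus strand, coding exon) was at 627, 662 and 544 CPM in wild type and 449, 377 and 447 CPM in snf2Δ. All 3 mutant libraries lay below the 3 wild type libraries. The log2 fold change was -0.53 ± 0.15 (SE, n = 3 per group, edgeR adjusted p = 0.0106), and the call was lost without snf2Δ replicate 2 (-0.45, adjusted p = 0.0700). NOP58 (YOR310C) was at 468, 510 and 448 CPM against 365, 296 and 435 CPM. Its groups did not overlap either, but the change of -0.38 ± 0.16 did not pass (adjusted p = 0.0705), with a 95% interval of -0.71 to -0.05, and it passed without wild type replicate 3 (-0.42, adjusted p = 0.0361) and without snf2Δ replicate 3 (-0.53, adjusted p = 0.0305). NOP1 (YDL014W) was at 1068, 854 and 1460 CPM against 887, 918 and 1060 CPM, with groups that overlapped. Its log2 fold change was -0.24 ± 0.18 (adjusted p = 0.331). NOP1 passed under 1 of 16 alternatives, the replicate number as a block with the GC and length correction (-0.39, adjusted p = 0.0279). Its wild type spread was the widest of the 3 genes, with replicate 3 the highest.

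The box H/ACA snoRNPs convert uridines of rRNA to pseudouridine and hold the pseudouridine synthase Cbf5 with Gar1, Nhp2 and Nop10. GAR1 (YHR089C, chromosome VIII, 282681 to 283298, minus strand) was at 525, 500 and 635 CPM in wild type and 397, 363 and 361 CPM in snf2Δ. The groups did not overlap, and the fall of 0.57 ± 0.14 on the log2 scale (adjusted p = 0.00633) was called under all 16 alternative settings. CBF5 (YLR175W, chromosome XII, 506134 to 507585, plus strand) was at 675, 670 and 588 CPM against 468, 433 and 528 CPM. It fell by 0.44 ± 0.14 (adjusted p = 0.0273). That call was lost without wild type replicate 1 (-0.40, adjusted p = 0.116), wild type replicate 2 (-0.41, 0.0900), snf2Δ replicate 1 (-0.41, 0.0755) or snf2Δ replicate 2 (-0.37, 0.131), and with upper-quartile scaling (-0.35, 0.0605). NHP2 (YDL208W) was at 310, 317 and 306 CPM against 304, 218 and 229 CPM, a log2 fold change of -0.31 ± 0.15 (adjusted p = 0.115) that passed without snf2Δ replicate 1 (-0.47, adjusted p = 0.0286) and with the GC and length correction (-0.46, adjusted p = 0.0212). NOP10 (YHR072W-A) was at 238, 228 and 362 CPM against 300, 283 and 241 CPM. It was the H/ACA gene with the smallest difference, -0.01 ± 0.18 with a 95% interval of -0.38 to 0.36. Of the 4 genes of this complex, 2 fell and the others gave no call, where 17.9% of all genes tested fell. Only the GAR1 call held under every setting.

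The small subunit processome is built from subcomplexes. UtpA binds the 5′ external transcribed spacer first, UtpB follows, and the U3 snoRNP and the Mpp10 complex join them. None of the 14 genes of these 3 groups among the 52 passed edgeR's test, which 34.6% of all genes tested passed. None passed with DESeq2 or limma-voom, and IMP3 passed with the GC and length correction. At an unadjusted p under 0.05 there was 1, UTP8 (YGR128C, UtpA), at 169, 159 and 199 CPM in wild type and 159, 122 and 129 CPM in snf2Δ. Its log2 fold change was -0.36 ± 0.15 (adjusted p = 0.0670, the lowest of the factors not called), and it passed without snf2Δ replicate 1 (-0.48, adjusted p = 0.0350). The other UtpA genes ran from -0.26 for UTP4 and UTP5 to 0.11 for UTP10 (YJL109C). UTP10 encodes the largest UtpA subunit and was at 240, 248 and 275 CPM against 261, 230 and 331 CPM, groups that overlapped, with a 95% interval of -0.22 to 0.43. The median of the 6 UtpA genes among the 52 was -0.11. The UtpA gene NAN1 is not among the 52 and was at -0.35 ± 0.15, not called (adjusted p = 0.0844).

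The 4 UtpB genes among the 52 had a median of 0.04, and 3 of the 4 values were above 0. The UtpB genes PWP2 and DIP2 are not among the 52 and were at -0.28 ± 0.17 and 0.07 ± 0.13, neither called. UTP6 (YDR449C) had the highest, 0.20 ± 0.16 (adjusted p = 0.349), at 45.7, 42.7 and 44.3 CPM against 58.5, 41.8 and 51.96 CPM. UTP21 (YLR409C) had the lowest, -0.19 ± 0.15 (adjusted p = 0.334), at 158, 148 and 200 CPM against 148, 133 and 162 CPM. Both groups overlapped in both genes. UTP18 lay at 0.01 ± 0.15 with a 95% interval of -0.31 to 0.32. Among the U3 and Mpp10 genes, IMP3 (YHR148W) was at 63.2, 64.9 and 75.5 CPM against 62.4, 53.6 and 56.4 CPM. All 3 mutant values were lower, by a margin of under 1 CPM between the nearest libraries, and the change was -0.24 ± 0.14 (adjusted p = 0.199, and -0.36 with adjusted p = 0.0412 under the GC and length correction). IMP4 (YNL075W), at 101, 102 and 97.2 CPM against 123, 101 and 83.3 CPM, had the highest value of this group, 0.04 ± 0.15. MPP10 was at -0.14 ± 0.14 and RRP9, a U3 snoRNP protein, at -0.08 ± 0.15.

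The other 9 factors of the 40S side all had log2 fold changes below 0, with a median of -0.26. Of all 5641 genes tested, 2925 had values below 0. Of the 9 factors, 2 fell (22.2%), near the 17.9% of all genes tested. ENP2 (YGR145W, chromosome VII, 781767 to 783890, plus strand), a nucleolar protein of the processome, was at 135, 142 and 105 CPM in wild type and 99.9, 76.2 and 89.5 CPM in snf2Δ. Every mutant library was below every wild type library, the nearest being wild type replicate 3. ENP2 fell by 0.52 ± 0.15 (adjusted p = 0.0150). The call was lost without wild type replicate 1 (-0.48, adjusted p = 0.0571), wild type replicate 2 (-0.44, 0.0601) or snf2Δ replicate 2 (-0.42, 0.0887). NOP14 (YDL148C, chromosome IV, 188154 to 190586, minus strand), which is needed for 18S rRNA maturation, was at 112, 108 and 83.4 CPM against 88.9, 57.4 and 68.1 CPM. Wild type replicate 3 lay below snf2Δ replicate 1, so the groups overlapped. NOP14 fell by 0.50 ± 0.17 (adjusted p = 0.0318). That call was lost without wild type replicate 1 (-0.42, 0.112), wild type replicate 2 (-0.45, 0.0762), snf2Δ replicate 2 (-0.36, 0.162) or snf2Δ replicate 3 (-0.47, 0.109), and with total-count scaling, upper-quartile scaling or the GC and length correction (adjusted p of 0.0792, 0.0780 and 0.0902).

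NSR1 (YGR159C), the yeast nucleolin, had the largest difference among factors that were not called. It was at 712, 729 and 1253 CPM in wild type and 620, 595 and 733 CPM in snf2Δ. The groups overlapped by the values of wild type replicates 1 and 2 and snf2Δ replicate 3, and wild type replicate 3 was the highest library by far. The log2 fold change was -0.47 ± 0.20 (adjusted p = 0.0790), and it passed without wild type replicate 1 (-0.61, 0.0381) or wild type replicate 2 (-0.60, 0.0298). It also passed with the replicate number as a block (-0.42, 0.0415), and with the GC and length correction added to that block (-0.45, 0.0252). At the other end UTP22 (YGR090W) was at 167, 154 and 196 CPM against 170, 131 and 173 CPM, a difference of -0.13 ± 0.15. UTP7, UTP20, RRP5, RRP12 and ENP1 lay between, from -0.31 for UTP7 (adjusted p = 0.0747, and 0.0308 without wild type replicate 3) to -0.18 for ENP1.

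Of the 18 genes of the early 60S group, 5 fell (27.8%), beside 17.9% of all genes tested, and their median was -0.26. Among 43 further 60S factors outside the 52, 8 fell (18.6%). NOP7 (YGR103W, chromosome VII, 695417 to 697234, plus strand) encodes the yeast pescadillo homolog, which works with Erb1 and Ytm1 in one complex. It was at 464, 463 and 447 CPM in wild type and 284, 232 and 264 CPM in snf2Δ. The wild type libraries lay within a few percent of each other and far above all 3 mutant libraries. NOP7 was 1.76-fold lower in snf2Δ, with a log2 fold change of -0.82 ± 0.14 (adjusted p = 2.7e-04), the largest of the 52 factors, and it was called under all 16 alternatives. ERB1 (YMR049C, chromosome XIII, 368094 to 370517, minus strand) was at 233, 220 and 243 CPM against 166, 153 and 200 CPM, with no overlap. It fell by 0.42 ± 0.14 (adjusted p = 0.0285), a call lost without wild type replicate 1 (-0.42, 0.0851), snf2Δ replicate 1 (-0.38, 0.0920) or snf2Δ replicate 2 (-0.34, 0.143), with upper-quartile scaling (0.0640) and with the GC and length correction (0.106). The third gene of the complex, YTM1 (YOR272W), was at 139, 154 and 197 CPM against 163, 154 and 159 CPM. These groups overlapped, and its log2 fold change was -0.04 ± 0.15 with a 95% interval of -0.36 to 0.27.

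NOP7 shares its upstream region with GTF1 (YGR102C), a subunit of the mitochondrial glutamyl-tRNA amidotransferase, which is transcribed in the opposite direction. The coding sequences are 281 bases apart, and GTF1 rose by 0.61 on the log2 scale (adjusted p = 0.0314). This neighbour was named after its value was seen. Over the 22 factors with a protein-coding neighbour of this kind, 1 other neighbour was called, TDA1 beside HAS1, which fell with a log2 fold change of -2.21.

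NOP16 (YER002W, chromosome V, 156803 to 157498, plus strand), a pre-60S component, was at 167, 175 and 99.9 CPM in wild type and 116, 80.6 and 83.3 CPM in snf2Δ. Wild type replicate 3 lay far below the other wild type libraries and below snf2Δ replicate 1, so the groups overlapped. NOP16 fell by 0.65 ± 0.20 (adjusted p = 0.0183). The call was lost without wild type replicate 1 (-0.55, 0.0574), wild type replicate 2 (-0.51, 0.0561), snf2Δ replicate 2 (-0.56, 0.0919) or snf2Δ replicate 3 (-0.58, 0.0975), and with total-count scaling (0.0539). BRX1 (YOL077C, chromosome XV, 185848 to 186723, minus strand), a Brix-domain protein of the pre-60S particle, was at 258, 268 and 315 CPM against 217, 188 and 177 CPM. The groups did not overlap, and the fall of 0.53 ± 0.14 (adjusted p = 0.00880) was called under all 16 alternatives. HAS1 (YMR290C, chromosome XIII, 850074 to 851591, minus strand), a DEAD-box helicase that acts in both pathways, was at 325, 344 and 432 CPM against 280, 236 and 266 CPM. It fell by 0.49 ± 0.15 (adjusted p = 0.0178) with no overlap, and the call was lost without snf2Δ replicate 2 (-0.43, adjusted p = 0.0942).

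Of the 13 early 60S factors that were not called, the Brix-domain gene SSF1 (YHR066W) had the highest log2 fold change of the group, 0.17 ± 0.16, at 53.1, 58.8 and 49.9 CPM against 73.2, 51.2 and 57.4 CPM. SSF1 and SSF2 (YDR312W) are 92.1% identical over the whole coding sequence, so the split of reads between them is uncertain. SSF2 was at 53.9, 47.1 and 35.8 CPM against 49.97, 43.6 and 48.2 CPM, a difference of 0.06 ± 0.17, and neither was called. NOP2 (YNL061W), an rRNA methyltransferase, was at 325, 317 and 214 CPM against 207, 209 and 263 CPM. Its change of -0.33 ± 0.17 did not pass (adjusted p = 0.141) but did without wild type replicate 3 (-0.51, adjusted p = 0.00784). NOP4, NOP15 and RPF2 likewise passed without that library, at -0.44, -0.42 and -0.37, against -0.33, -0.29 and -0.29 with it. MAK16, SPB1, SPB4 and YTM1 lay within 0.06 of 0 on the log2 scale, and NOP12, NOP13, RPF1 and RLP7 ran from -0.24 to -0.10.

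The last group holds the nucleolar GTPases Nog1, Nog2 and Nug1 and the anti-association factor Tif6, which leaves the pre-60S particle in the cytoplasm. NOG2 (YNR053C, chromosome XIV, 721120 to 723112, minus strand, 2 exons) was the factor that rose. It was at 125, 128 and 136 CPM in wild type and 169, 178 and 171 CPM in snf2Δ, and both groups were tight and did not overlap. The log2 fold change was 0.41 ± 0.13 (adjusted p = 0.0197), the smallest size among the factors called. The call was lost without wild type replicate 1 (0.39, adjusted p = 0.101), wild type replicate 2 (0.40, 0.0704) or snf2Δ replicate 2 (0.39, 0.0734). NOG2 was also the one factor that overlaps another annotated gene, the box H/ACA snoRNA snR191 in its intron, on the same strand. The table gave snR191 2 to 11 counts per library, against 607 to 849 for NOG2.

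NUG1 (YER006W) had the smallest difference of this group, at 265, 283 and 258 CPM against 268, 264 and 265 CPM. Its log2 fold change was -0.02 ± 0.13 with a 95% interval of -0.29 to 0.26. NOG1 (YPL093W) was at 363, 360 and 525 CPM against 464, 440 and 496 CPM, and TIF6 (YPR016C) at 418, 397 and 689 CPM against 497, 544 and 534 CPM. In both genes wild type replicate 3 was above all mutant libraries and wild type replicates 1 and 2 were below them. With all libraries NOG1 gave 0.17 ± 0.16 (adjusted p = 0.460) and TIF6 0.07 ± 0.19 (adjusted p = 0.817), and without wild type replicate 3 they passed at 0.37 (adjusted p = 0.0289) and 0.36 (adjusted p = 0.0293).

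**Figure D4:**
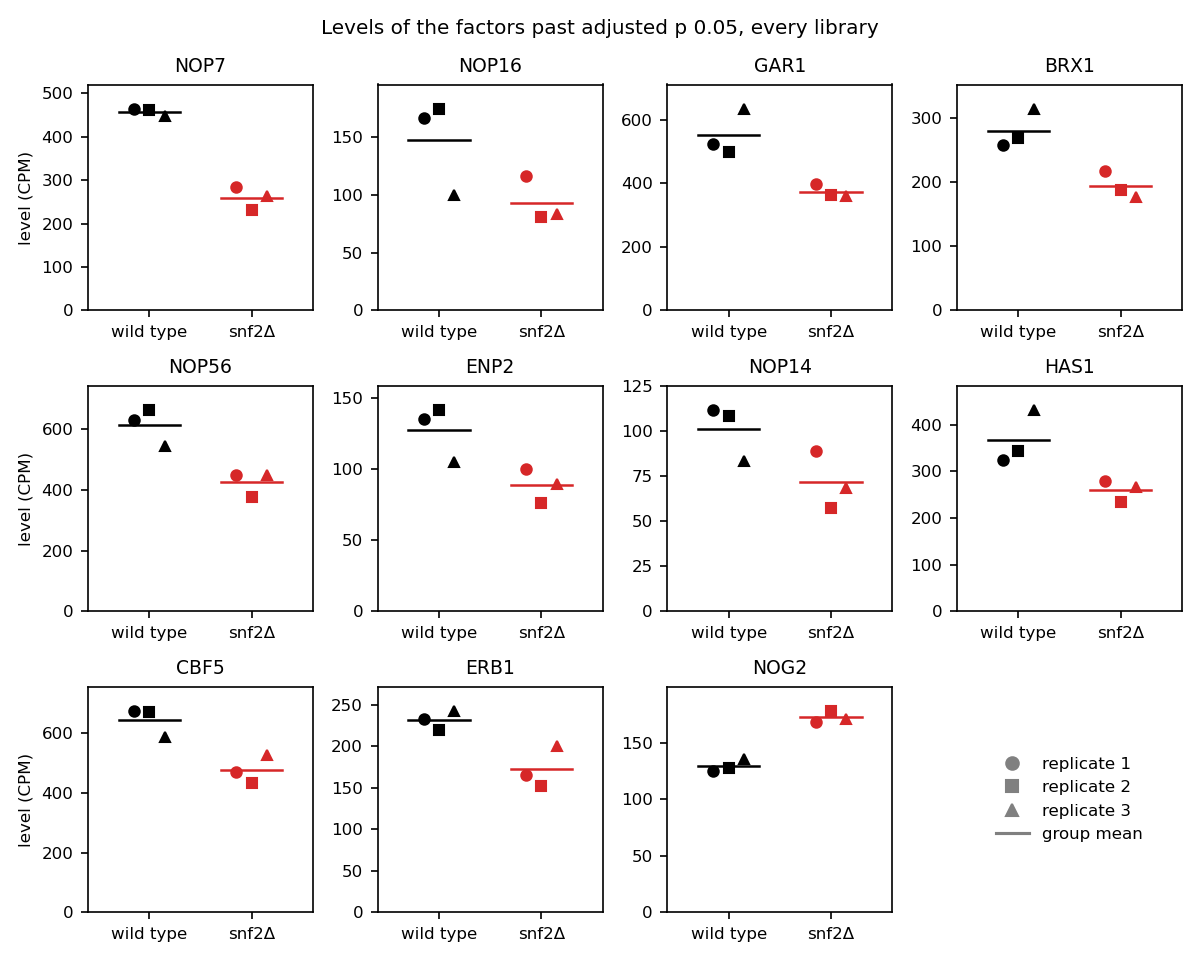
Levels in CPM (linear axes from 0) of the 11 factors with an adjusted p under 0.05, in every wild type (black) and snf2Δ (red) library, with symbols for the replicate number and lines for the group means. The groups do not overlap in 9 of the 11 genes, and wild type replicate 3 falls within the mutant range in NOP16 and NOP14.

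Levels can be compared between factors per kilobase of coding length, which leaves out untranslated ends and so overstates short genes. In wild type the highest were NOP10 at 1561 ± 421, NOP1 at 1146 ± 313 and GAR1 at 895 ± 116 CPM per kb (mean ± SD, n = 3), followed by NSR1 at 721 ± 247, TIF6 at 679 ± 221 and NHP2 at 660 ± 12.2. Neighbours among these 6 differed by less than their spread. The lowest was UTP20 at 21.9 ± 3.65 CPM per kb, below UTP6 at 33.4 ± 1.13. All snoRNP core genes were above 300 CPM per kb, whereas UtpA genes ran from 47.9 to 93.8 and UtpB genes from 33.4 to 59.8 CPM per kb. The box H/ACA genes were thus not level with each other: NOP10 was at 1561 and CBF5 at 444 ± 33.7 CPM per kb.

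Summed over the 52 factors, the level was 12330, 12266 and 13717 CPM in wild type and 11019, 9863 and 11271 CPM in snf2Δ. Every mutant library was below every wild type library, and the mean was 0.839 of wild type. The sum is weighted to abundant genes such as NOP1 and NSR1. When each factor counted equally, the median log2 level against the wild type mean was -0.10, -0.33 and -0.15 in snf2Δ replicates 1, 2 and 3. For wild type it was -0.01, 0.01 and -0.01. The same median over all genes ran from -0.03 to 0.01. The snf2Δ replicate 2 library had 47 of the 52 factors below the wild type mean and held the lowest level of all 6 libraries for 28 of them.

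Wild type replicate 3 differed from the other wild type libraries in both directions. Its median size of difference was 0.27 on the log2 scale over the 52 factors, against 0.07 between wild type replicates 1 and 2, and over all annotated genes tested these values were 0.25 and 0.12. In it 11 factors were more than 0.3 higher, led by NSR1 (0.80), TIF6 (0.76) and NOP10 (0.63), and 10 were more than 0.3 lower, led by NOP16 (-0.77), NOP12 (-0.60) and NOP2 (-0.58). Across the 52 factors this difference and the GC content of the coding sequence had a Pearson correlation of 0.34 and a Spearman correlation of 0.24, and across 5502 annotated genes of 0.15 and 0.17. These are descriptions over genes of the same libraries, and the part of GC content in the difference was not tested.

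**Figure D5:**
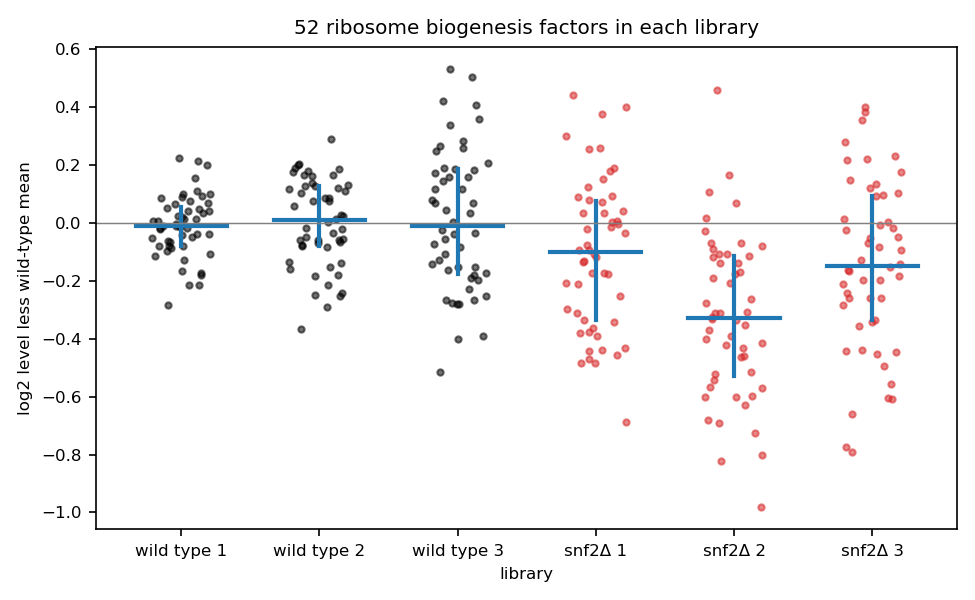
Log2 level of each of the 52 factors in each library, less the mean of the 3 wild type libraries, with blue lines for the median and the quartiles (points spread sideways at random). The wild type medians lie within 0.01 of 0 with the widest spread in replicate 3, and the snf2Δ medians at -0.10, -0.33 and -0.15.

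Factors with both promoter elements spanned the whole range of fold changes. The 44 factors with both PAC and RRPE held 9 of the factors that fell and the one that rose, with a median of -0.24 and a range of -0.82 to 0.41. The 5 with PAC alone held ENP2, which fell, and had a median of -0.14. The 3 factors without PAC had values of 0.10 (UTP15), 0.06 (SPB1) and -0.13 (UTP22), and none was called. No test was run between these classes.

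A further list of 89 biogenesis factors outside the 52 was examined beside them. In it 19 fell (21.3%) and 3 rose (3.37%), beside 17.9% and 16.7% of all genes tested, with a median log2 fold change of -0.20. PAC was found in 81 of the 89 promoters (91.0%) and RRPE in 75 (84.3%). Without snf2Δ replicate 2, 3 of the 89 fell, beside 13.1% of all genes tested. Without wild type replicate 3, 31 fell and 7 rose, beside 22.95% and 20.9% of all genes. Without wild type replicate 1 or wild type replicate 2, 9 fell, beside 13.6% and 14.2% of all genes. The 4 falls with the smallest adjusted p were ESF1, MAK21, BMS1 and ROK1. ESF1, a processome protein, was at 143, 160 and 123 CPM against 82.7, 75.3 and 93.2 CPM, a fall of 0.76 ± 0.14 (adjusted p = 7.1e-04). MAK21, a pre-60S export factor, was at 277, 278 and 241 CPM against 185, 135 and 195 CPM, a fall of 0.63 ± 0.16. BMS1, the GTPase of the processome, fell by 0.59 ± 0.15, and the helicase gene ROK1 by 0.52 ± 0.14 (adjusted p = 0.00835). Without snf2Δ replicate 2 the calls of BMS1 (-0.49, adjusted p = 0.0516) and ROK1 (-0.43, adjusted p = 0.0549) were lost.

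The 3 further factors that rose all act on the 60S side. REI1, which works in the cytoplasm on late pre-60S particles, was at 67.1, 77.6 and 91.2 CPM in wild type and 153, 156 and 136 CPM in snf2Δ. Its groups were far apart, with a log2 fold change of 0.91 ± 0.14 (adjusted p = 1.5e-04), and its estimate lay above those of the 52 factors. NSA2 was at 135, 145 and 132 CPM against 228, 193 and 186 CPM, a rise of 0.56 ± 0.14. DBP7, also a helicase gene, was at 53.3, 50.4 and 48.1 CPM against 71.2, 58.7 and 76.1 CPM, a rise of 0.44 ± 0.15 (adjusted p = 0.0283). The DBP7 call was lost without wild type replicate 1 (0.0608), wild type replicate 2 (0.0716), snf2Δ replicate 1 (0.0802) or snf2Δ replicate 3 (0.117).

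Of 11 genes for RNA polymerase I subunits and its initiation factors, 2 rose (18.2%) and 1 fell (9.09%), with a median of 0.04. Among all genes tested 16.7% rose and 17.9% fell. RPA43, a stalk subunit, was at 127, 126 and 88.2 CPM in wild type and 87.5, 69.4 and 68.1 CPM in snf2Δ, a fall of 0.60 ± 0.16 (adjusted p = 0.00988) lost without snf2Δ replicate 2 (0.0505) or snf2Δ replicate 3 (0.0568). RPA14, the other stalk subunit, moved the opposite way, from 35.9, 31.6 and 40.6 CPM to 61.9, 53.6 and 67.6 CPM, a rise of 0.76 ± 0.16 (adjusted p = 0.00146) that was lost with the GC and length correction (0.37, adjusted p = 0.0587). RRN11, of the core initiation factor, went from 7.85, 6.53 and 6.90 CPM to 14.3, 11.6 and 17.2 CPM, a rise of 1.01 ± 0.24. The genes of the 2 largest subunits, RPA190 and RPA135, had values of -0.23 ± 0.16 and 0.03 ± 0.18 with overlapping groups.

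Of 10 regulators of ribosome synthesis, 3 fell (30%) and 2 rose (20%), beside 17.9% and 16.7% of all genes tested. HMO1, a high mobility group protein of the rDNA and of ribosomal protein genes, was at 228, 241 and 303 CPM in wild type and 136, 129 and 144 CPM in snf2Δ. It fell by 0.92 ± 0.15 (adjusted p = 1.5e-04), and its estimate lay below those of the 52 factors. SFP1, an activator of ribosome biogenesis genes, fell from 101, 107 and 136 CPM to 67.0, 72.7 and 81.0 CPM, by 0.64 ± 0.15 (adjusted p = 0.00324). DOT6, one of the PAC-binding repressors, was at 316, 268 and 296 CPM against 208, 235 and 221 CPM, a fall of 0.41 ± 0.14 (adjusted p = 0.0292) that was lost without wild type replicate 1 (0.146) or any one of snf2Δ replicates 1 (0.0945), 2 (0.0547) and 3 (0.0680). Its paralog TOD6 was at -0.01 ± 0.17, and the RRPE-binding STB3 at -0.19 ± 0.13.

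IFH1, a coactivator of ribosomal protein genes, rose from 40.5, 43.1 and 27.7 CPM to 53.9, 51.7 and 64.1 CPM, by 0.61 ± 0.18 (adjusted p = 0.0138, and 0.0802 without snf2Δ replicate 3). SCH9, the kinase that signals from TORC1 to ribosome synthesis, was at 184, 157 and 227 CPM against 224, 259 and 277 CPM. Its rise of 0.42 ± 0.16 was at the threshold (adjusted p = 0.0487), the groups overlapped, and the call was lost without wild type replicate 1 (0.139), wild type replicate 2 (0.220), snf2Δ replicate 2 (0.131) or snf2Δ replicate 3 (0.164). FHL1, RAP1 and ABF1 were not called, at -0.10 ± 0.17, -0.21 ± 0.13 and -0.24 ± 0.15. A list of 12 environmental stress genes was chosen with earlier results of these data known. Yeast usually induces such genes when biogenesis factors are repressed. Of the 12 genes, 11 fell (91.7%), beside 17.9% of all genes tested, with a median of -2.54. Because the list was chosen with results known, its share and median only describe these 12 genes. A relation between them and the biogenesis factors was not tested.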

How the data were processed

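The submitters' processing notes name bcl2fastq 2.18, STAR 2.7.3a, RSEM 1.3.0 and the sacCer3 build, and the authors deposited 1 table of raw counts per gene for 6 libraries. RNA was poly-A enriched. The sources do not state whether counting used strand, nor the filters before counting. Counts were filtered with filterByExpr, scaled by TMM and tested with edgeR 4.0.16 (R 4.3.3), wild type against snf2Δ. Benjamini-Hochberg adjustment ran over 5642 genes with SNF2 among them. SNF2 (deleted by design) was then left out of the tallies, which cover 5641 genes. SE was the log2 fold change divided by the square root of F, and 95% intervals used the fit's degrees of freedom. Library totals of 4134546 to 6708036 set a floor of 3 counts, or 0.481 to 0.746 CPM (counting error only). The test was tested on simulated data. Alternatives were DESeq2 1.42.0, limma-voom 3.58.1, other scalings and filters, a GC and length correction (loess span 0.5), a replicate block and leaving out each library. 

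The 52 factors and the other lists (89 further factors, 11 RNA polymerase I genes, 10 regulators, 12 stress genes, 9 mating-type genes) were chosen with earlier results of these data known. Values are given for every factor called, for the highest and lowest of each role and for up to 4 genes per direction of the other lists. Gene positions, promoters and coding lengths came from RefSeq R64, the assembly of sacCer3. Promoters were read from the genome. Copies were searched with BLAST 2.17.0. Of the table's features, 1080 have no position in that annotation, and their overlap with the factors was not examined.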

Additional observations from a re-analysis of the deposited data

How the results depend on the processing

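Of 16 alternative settings, every one kept the sign of the 11 factors called. NOP7, GAR1 and BRX1 were called under all of them. Leaving out 1 library gave 3 to 16 factors that fell and 0 to 3 that rose, 1426 to 2493 genes called in all, and a factor median of -0.24 to -0.14. The GC and length correction and upper-quartile scaling each gave a factor median of -0.13, against -0.21, with all-gene medians of -0.02 and 0.06. For the 89 further factors, leaving out 1 library gave 3 to 31 falls and 2 to 7 rises. Over all genes tested, 13.1% to 22.95% fell and 12.1% to 20.9% rose in these fits. Upper-quartile scaling gave 10 falls and 6 rises among the 89, beside 14.3% and 21.2% of all genes. The GC and length correction gave 6 rises there, and the replicate block with that correction 7, beside 17.5% and 18.5% of all genes. As GCGATGAG, PAC was found in 57.7% of the factors. Over the genes named, 52 results under alternatives lost a call and 21 gained one, of 1072, none with a change of sign. Total-count scaling ended the calls of DBP7 (adjusted p = 0.0617) and IFH1 (adjusted p just past the threshold), and upper-quartile scaling that of DOT6 (0.0711). A further 49 uncalled values changed sign. With the replicate number as a block, 11 factors fell and 1 rose, and 2044 genes were called. NSR1 then passed (-0.42, adjusted p = 0.0415). With the GC and length correction as well, 14 fell and 1 rose, and NOP1 (-0.39, adjusted p = 0.0279), NSR1 (-0.45, 0.0252), NHP2 (-0.47, 0.0150), IMP3 (-0.35, 0.0332) and NOP15 (-0.36, 0.0295) passed, while ERB1 did not. Whether libraries with the same number pair was not settled. Their deviations from the group means correlated at 0.15, -0.04 and 0.13. Replicates 1 and 3 of snf2Δ correlated best with wild type of the same number, and snf2Δ replicate 2 with wild type replicate 3. With 3 libraries per group and SEs near 0.15, changes of about 0.4 on the log2 scale lay at the limit of what was called.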
